A study of Mus musculus with 36 samples.

Results

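The 43 genes described here take part in cell division and DNA replication or regulate them. They were taken by symbol from a list of genes with these roles, which was drawn up with earlier results of these data known, and 43 of 43 were listed in both deposited tables, which held 15385 genes for microglia and 14551 for astrocytes. The list was read in 3 classes kept apart throughout. The mitosis class had 22 genes (Mki67, Top2a, Ccnb1, Ccnb2, Cdk1, Ccna2, Aurka, Aurkb, Bub1, Bub1b, Plk1, Kif11, Kif20a, Kif23, Cdc20, Cenpe, Cenpf, Tpx2, Birc5, Nusap1, Ube2c and Prc1). The replication (S phase) class had 19 genes (Mcm2, Mcm3, Mcm4, Mcm5, Mcm6, Mcm7, Pcna, Rrm1, Rrm2, Tyms, Tk1, Gins2, Cdc6, Cdt1, E2f1, E2f8, Ccne1, Ccne2 and Chek1). The remaining 2 were the regulators Ccnd1 and Cdkn1a.

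A cell that divides first licenses its replication origins, when CDC6 and CDT1 load the MCM2-7 helicase onto DNA, then copies its genome in S phase and separates the copies in mitosis. E2F transcription factors turn on the replication genes at the entry to S phase, and the mitosis genes follow later, through promoters that often hold a CCAAT box and the cell cycle element called CHR. Cyclin D1 (Ccnd1) pushes cells toward S phase, and p21 (Cdkn1a), an inhibitor of cyclin-dependent kinases and a target of p53, holds them back. Microglia, the macrophages of the brain, divide little at rest and depend on colony-stimulating factors, while astrocytes from newborn brain divide readily in culture.

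Primary microglia and astrocytes were prepared from pooled brains of C57BL/6 mice aged 2 to 4 days, after 12 days of mixed glial culture, and were treated for 4 h. Microglia were selected by CD11b, and astrocytes came out of the fraction without microglia, so a library is a culture and not an animal. Microglia (24 libraries, 4 per group) received DMSO, Nec-1s, T/5z (TNF and 5z-7), T/S/Z (TNF, Smac mimetic and zVAD), or either stimulus together with Nec-1s, which adds /N to its name. Astrocytes (12 libraries, 3 per group) received the same 4 treatments that contain no 5z-7. DMSO is the vehicle, 5z-7 inhibits the kinase TAK1, Smac mimetics deplete IAP proteins, zVAD blocks caspases and Nec-1s inhibits the kinase RIPK1. In the study's viability assays both stimuli killed microglia, less so with Nec-1s, while astrocytes showed no death that depended on RIPK1. The part of cell death in the changes below was not tested. No allele or transgene was named. The study describes its replicates in general as cells from separate litters, while the labels do not tie a library to a litter, so the p-values measure the spread between these libraries. In microglia the p-values and SD measure only the spread left after an adjustment by the authors that made the replicate means equal.

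Values are log2(FPKM + 1), and a difference between groups is a difference on that scale, which understates the change of genes at low level. A gene was called where it differed by more than 1.5-fold on that scale with an adjusted p under 0.05 in limma, with the replicate number as a block and Benjamini-Hochberg adjustment over all genes tested in the table (10524 in microglia, 13842 in astrocytes). Errors after ± are SD, with n = 4 in microglia and n = 3 in astrocytes. Total counts were not part of the files used here. Low values fall on steps worth 1 fragment each, which put the scaled depth at 21.3 to 22.4 M fragments for the 12 astrocyte libraries and at 18.4 to 25.4 M for the 6 libraries of microglial replicate 4. The other 18 had no steps left after an adjustment by the authors, and their depth is unknown. At that depth a member rested on a median of about 60 fragments per library in microglia (20 of 43 members under 50) and about 1251 in astrocytes. Summed microglial markers lay between 8297 and 10030 FPKM in the microglial libraries and summed astrocyte markers between 3083 and 3602 FPKM in the astrocyte libraries, so each table carried the markers of the cells its label names.

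The tables stood furthest apart in the mitosis class. With DMSO, the mean levels of the 22 mitosis genes had a median of 0.86 in microglia, from 0.10 for Cenpf, a kinetochore protein, to 2.56 for Cdk1, the kinase that starts mitosis. In astrocytes the median was 4.14, with the same genes at the ends, from 2.39 for Cenpf to 6.09 for Cdk1. A mean under 1 was found for 12 of the 22 in microglia and for 0 in astrocytes. The replication class was closer between the tables, with a median of 2.67 in microglia and 3.45 in astrocytes, and in both it ran from Cdc6 (0.14 and 1.73) to Pcna, the clamp that holds polymerases on DNA (7.16 and 6.94).

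Several members were at a higher level in the microglial table, and these were not mitosis genes. Cdt1 stood at 4.33 ± 0.13 in microglia and 2.32 in astrocytes with DMSO, which is 19.1 against 4.01 FPKM. E2f1, the factor that gives the E2F family its name, stood at 3.02 ± 0.13 and 2.49 ± 0.15, and Cdkn1a at 8.00 ± 0.20 and 6.88 ± 0.09. Mcm6 was at 4.59 and 4.56. Ccnd1 went the other way, with 2.79 ± 0.11 in microglia and 7.32 ± 0.10 in astrocytes. These levels are set side by side without a test, because the tables were normalized separately and cell type cannot be told apart from the sequencing provider and the library protocol. The annotations also give most members other exon lengths (2189 bases in microglia and 3140 in astrocytes for Cdt1, 1440 and 5198 for Tk1).

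**Figure D1:**
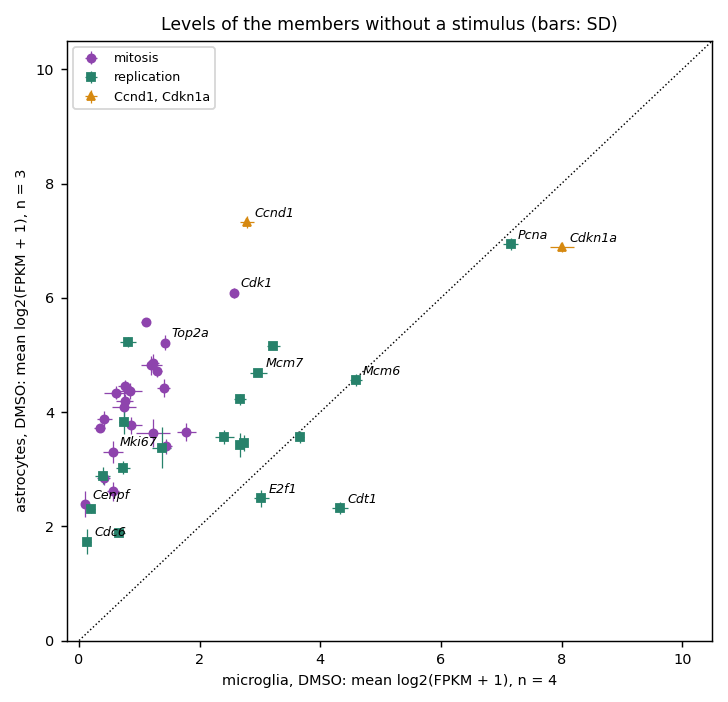
Mean log2(FPKM + 1) of the 43 members with DMSO, microglia (n = 4) on the horizontal axis and astrocytes (n = 3) on the vertical axis, bars SD, dotted line equal levels. The mitosis genes (circles) lie above the line, from 0.10 to 2.56 in microglia and 2.39 to 6.09 in astrocytes, while Cdt1, E2f1 and Cdkn1a lie below it.

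The promoters of the classes differed in the motifs they hold. RefSeq windows on GRCm38.p6 from 250 bases before to 50 bases after the start were found for 35 of the 43 members and searched on both strands for the CHR (TTTGAA or TTCGAA), the CCAAT box (CCAAT) and E2F sites (TTTCCCGC, TTTGGCGC, TTTCGCGC or TTCCCGCC, of which the first and the last overlap in a longer site). A CHR was in 14 of 18 mitosis promoters (77.8%), in 3 of 16 replication promoters (18.8%) and in 21.7% of the 27025 genes of the table. An E2F site was in 1 of 18 mitosis promoters, in 8 of 16 replication promoters and in 4.00% of all genes, and a CCAAT box in 88.9%, 56.2% and 41.1%. The start that RefSeq gives lay within 50 bases of the gene's outer end in the microglial annotation for 29 of 38 windows, and for E2f1, Mcm7 and Cdc6 every window lay wholly inside the annotated gene, as did that of Chek1 in the astrocyte annotation, so their outermost start was not searched. These are counts of letters and not of bound sites.

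**Figure D2:**
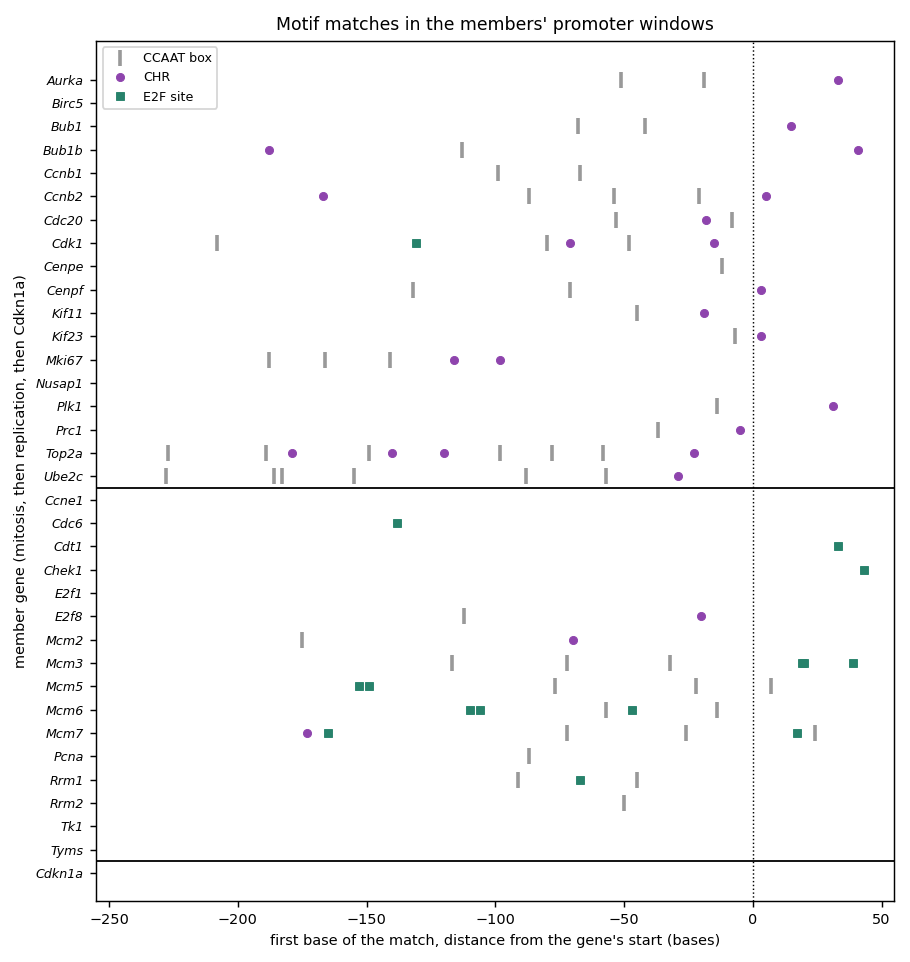
Position of each match to the CHR, the CCAAT box or an E2F site in the promoter windows of 35 members, as the distance of its first base from the start of the gene in bases (for genes with 2 windows, the first). CHR matches are found mainly in the upper block of mitosis genes (14 of 18 promoters) and E2F sites mainly in the replication genes (8 of 16).

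The windows of 5 of the members that were called in microglia and hold matches are printed 5′ to 3′ along the gene, with the matches in capitals. Cdkn1a, which changed most, is not shown, because its 2 windows hold 0 matches. Mki67 and Bub1b carry CHR and CCAAT letters, Mcm6 and Mcm7 carry E2F and CCAAT letters with a CHR in Mcm7, and Cdt1 carries an E2F site after its start. Mcm7 has a second window, not shown, with 1 match, a CCAAT box.
Mki67 (ENSMUSG00000031004), chr7:135716330-135716629, strand -: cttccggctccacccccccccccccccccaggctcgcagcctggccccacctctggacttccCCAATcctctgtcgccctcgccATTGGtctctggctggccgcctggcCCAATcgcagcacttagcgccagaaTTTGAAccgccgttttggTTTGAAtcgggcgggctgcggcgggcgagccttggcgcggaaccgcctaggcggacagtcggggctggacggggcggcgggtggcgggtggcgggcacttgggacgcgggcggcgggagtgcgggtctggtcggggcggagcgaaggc
Bub1b (ENSMUSG00000040084), chr2:118597961-118598260, strand +: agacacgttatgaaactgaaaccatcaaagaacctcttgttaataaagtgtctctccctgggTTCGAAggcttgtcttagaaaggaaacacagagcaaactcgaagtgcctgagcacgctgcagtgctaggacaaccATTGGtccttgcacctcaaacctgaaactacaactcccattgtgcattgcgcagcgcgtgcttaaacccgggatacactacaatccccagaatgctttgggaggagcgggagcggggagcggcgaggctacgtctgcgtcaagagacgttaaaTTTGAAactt
Mcm6 (ENSMUSG00000026355), chr1:128359656-128359955, strand -: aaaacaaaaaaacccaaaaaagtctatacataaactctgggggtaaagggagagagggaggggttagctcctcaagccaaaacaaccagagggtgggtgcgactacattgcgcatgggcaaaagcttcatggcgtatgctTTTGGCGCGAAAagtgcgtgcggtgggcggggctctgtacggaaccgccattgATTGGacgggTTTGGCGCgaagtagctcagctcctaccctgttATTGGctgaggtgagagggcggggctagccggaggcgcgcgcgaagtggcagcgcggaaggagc
Mcm7 (ENSMUSG00000029730), chr5:138171834-138172133, strand -: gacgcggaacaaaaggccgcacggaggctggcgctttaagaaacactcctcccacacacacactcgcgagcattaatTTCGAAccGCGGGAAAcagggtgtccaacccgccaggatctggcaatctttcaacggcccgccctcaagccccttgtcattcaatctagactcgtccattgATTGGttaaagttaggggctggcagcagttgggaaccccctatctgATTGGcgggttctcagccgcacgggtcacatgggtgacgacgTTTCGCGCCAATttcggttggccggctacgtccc
Cdt1 (ENSMUSG00000006585), chr8:122567765-122568064, strand +: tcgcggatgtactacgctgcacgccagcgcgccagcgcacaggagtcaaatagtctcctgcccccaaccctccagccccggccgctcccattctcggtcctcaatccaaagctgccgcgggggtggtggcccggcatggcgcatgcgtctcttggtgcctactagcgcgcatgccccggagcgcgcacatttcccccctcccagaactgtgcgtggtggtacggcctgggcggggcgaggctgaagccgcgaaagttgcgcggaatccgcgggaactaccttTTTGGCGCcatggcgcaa

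Nec-1s alone moved no member past the test. In microglia 0 of the 29 members tested were called by limma, against 0% of all genes tested, and 1 of the 29 (Cdkn1a, at 8.07 ± 0.23 against 8.00 ± 0.20 with DMSO) had an unadjusted p under 0.05. The changes of the 29 lay between -0.14 and 0.11. In astrocytes 0 of 43 were called, against 0.0144% of all genes, none had an unadjusted p under 0.05, and the changes lay between -0.20 and 0.19.

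Of the 43 members, 29 passed the filter in microglia (a value of at least 1 in at least 4 libraries), 13 of them in the mitosis class, 14 in the replication class and both regulators. The 14 that did not were Bub1, Ccna2, Ccnb2, Cenpe, Cenpf, Kif11, Kif20a, Kif23, Plk1, Ccne1, Ccne2, Cdc6, Chek1 and Tyms, whose means stayed between 0.05 and 0.86 in every group. With no filter, all 43 entered the fit and the counts of called members were the same in every comparison.

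With T/5z, 4 of the 13 mitosis genes tested in microglia were called. Mki67 and Nusap1 rose and Bub1b and Cdk1 fell, which is 15.4% in each direction, near the 11.1% higher and 13.3% lower of all genes tested. The median change was -0.04 (0.07 with quantile normalization and 0.03 with median centring, so its sign is not stable) beside -0.06 over all genes tested. Mki67 encodes the nuclear protein detected as Ki-67 and Nusap1 a protein that bundles spindle microtubules. Bub1b encodes the checkpoint kinase BUBR1. Together with the other classes, 4 of 29 members were higher (13.8%) and 6 lower (20.7%). T/S/Z raised none of the 13 and lowered Bub1b and Aurkb (15.4%, beside 17.5% of all genes), with a median change of -0.02 (0.15 with quantile normalization and 0.08 with median centring) beside -0.08.

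Mki67 was at 0.80, 0.43, 0.53 and 0.48 with DMSO and at 0.63, 0.44, 0.48 and 0.51 with Nec-1s alone. With T/5z it was at 2.20, 2.44, 1.53 and 2.25, and with T/5z/N at 1.15, 1.34, 1.42 and 1.5. With T/S/Z it was at 0.87, 0.80, 1.09 and 0.67, and with T/S/Z/N at 0.34, 0.54, 0.93 and 0.57. The 4 T/5z libraries were therefore above all others, the T/5z/N libraries came next, and the T/S/Z libraries overlapped with DMSO. The change was 1.55 ± 0.16 (SE, adjusted p = 0.000178) with T/5z and 0.30 (adjusted p = 0.0423, under 1.5-fold and not called) with T/S/Z, and T/S/Z lay 1.25 below T/5z (adjusted p = 0.00236). With the variance of each gene alone, that last call was lost (adjusted p = 0.069). Mki67 reached 1 in 9 of the 24 libraries, so it passed the filter through the T/5z groups.

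Nusap1 was at 0.41, 0.24, 0.51 and 0.52 with DMSO and 0.50, 0.41, 0.72 and 0.48 with Nec-1s. It was at 1.03, 1.33, 0.96 and 1.13 with T/5z, 1.08, 1.17, 1.05 and 1.16 with T/5z/N, 0.87, 0.57, 0.66 and 0.55 with T/S/Z and 0.59, 0.77, 0.59 and 0.65 with T/S/Z/N. Every T/5z and T/5z/N library was above every other library. The rise with T/5z was 0.69 ± 0.13 (SE, adjusted p = 0.00273), and without replicate 2 it was 0.56 and no longer called. Nusap1 reached 1 in 7 of the 24 libraries, all of them with T/5z or T/5z/N, so it passed the filter only through the groups where it was high.

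Bub1b stood at 1.32, 1.53, 1.46 and 1.49 with DMSO and 1.31, 1.28, 1.25 and 1.45 with Nec-1s. It was at 0.76, 0.71, 0.39 and 0.45 with T/5z, 0.69, 0.70, 0.98 and 0.85 with T/5z/N, 0.59, 0.52, 0.47 and 0.42 with T/S/Z and 0.57, 0.50, 0.70 and 0.60 with T/S/Z/N. All 16 libraries with a stimulus were below the 8 without. Under T/5z it fell by 0.87 ± 0.11 (SE, adjusted p = 0.000517), under T/S/Z it fell by 0.95 ± 0.10 (SE, adjusted p = 7.15e-05), and the fall was also called with Nec-1s present (-0.65 in T/5z/N and -0.86 in T/S/Z/N against DMSO). Bub1b reached 1 in 8 of the 24 libraries, which were those with DMSO and Nec-1s, so it too passed the filter only through the groups where it was high.

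Cdk1 was at 2.52, 2.59, 2.51 and 2.64 with DMSO and 2.28, 2.79, 2.73 and 2.69 with Nec-1s. It was at 1.78, 1.99, 1.45 and 1.62 with T/5z and 2.06, 2.01, 2.06 and 2.04 with T/5z/N. With T/S/Z it was at 2.29, 1.79, 2.01 and 1.94, and with T/S/Z/N at 1.85, 1.60, 2.01 and 1.84. None of the stimulated libraries reached the lowest DMSO library. The change under T/5z was -0.85 ± 0.10 (SE, adjusted p = 0.000249). The change under T/S/Z was -0.56 (adjusted p = 0.00174), just under 1.5-fold and not called.

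Aurkb, the kinase of the chromosomal passenger complex, was at 0.92, 1.27, 1.13 and 1.59 with DMSO, 1.23, 1.16, 1.3 and 1.25 with Nec-1s and 0.62, 0.65, 0.66 and 0.47 with T/S/Z. It was at 0.91, 0.92, 0.78 and 0.63 with T/5z, 1.14, 1.01, 1.12 and 1.02 with T/5z/N and 0.97, 0.79, 0.81 and 0.84 with T/S/Z/N. The T/S/Z libraries were below all DMSO libraries, and the DMSO libraries were spread more widely than any other group. The fall with T/S/Z was -0.62 ± 0.14 (SE, adjusted p = 0.00451), and it was lost without replicate 4 (-0.46), with quantile normalization (-0.54), with median centring (-0.52) and with the variance of each gene alone (adjusted p = 0.0612). Aurkb reached 1 in 11 of the 24 libraries, all of them with DMSO, Nec-1s or T/5z/N.

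Aurka, the kinase of the spindle poles, separated the stimuli. It was at 1.68, 1.67, 1.77 and 2.00 with DMSO, 1.69, 1.95, 1.87 and 1.79 with Nec-1s, 1.96, 1.86, 2.01 and 1.93 with T/5z and 1.92, 1.68, 1.70 and 1.81 with T/5z/N. With T/S/Z it was at 1.5, 1.39, 1.13 and 1.11, and with T/S/Z/N at 1.64, 1.83, 1.89 and 1.72. Only the T/S/Z libraries stood below the rest, without overlap. Against DMSO neither stimulus gave a call (0.16 and -0.50), whereas T/S/Z against T/5z gave -0.66 ± 0.10 (SE, adjusted p = 0.00247), which was -0.58 and not called without replicate 3. Top2a, the topoisomerase that untangles chromosomes, was at 1.35, 1.5, 1.4 and 1.42 with DMSO, 1.36, 1.37, 1.26 and 1.55 with Nec-1s, 1.83, 1.92, 1.72 and 1.46 with T/5z and 1.65, 1.27, 1.37 and 1.29 with T/S/Z. With Nec-1s added it was at 1.55, 1.63, 1.74 and 1.70 (T/5z/N) and 1.13, 1.19, 1.4 and 1.46 (T/S/Z/N). Its changes of 0.31 and -0.02 were not called, and both stimuli overlapped with DMSO. The other mitosis genes tested (Birc5, Ccnb1, Cdc20, Prc1, Tpx2 and Ube2c) changed by -0.07 to 0.12 with T/5z and by -0.39 to 0.17 with T/S/Z, and none was called.

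**Figure D3:**
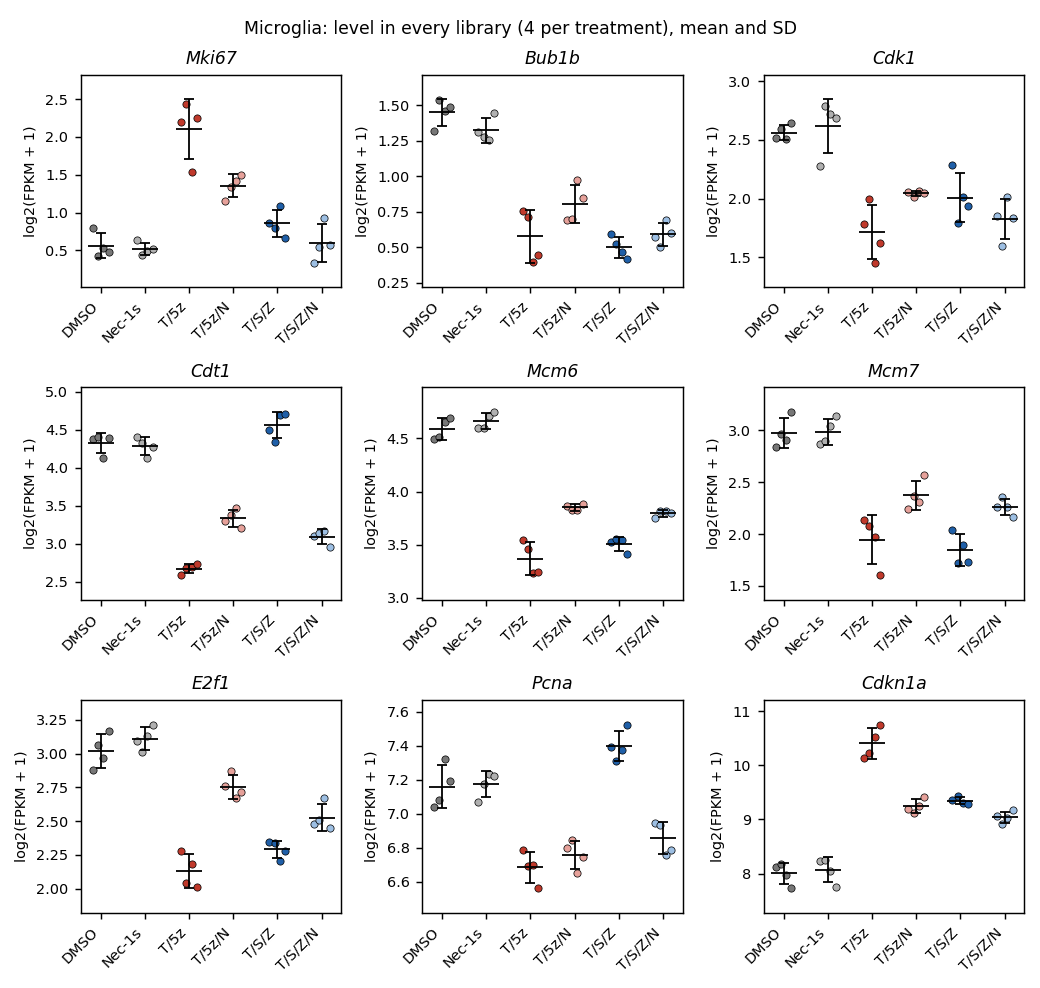
Level of 9 members in each microglial library as log2(FPKM + 1), 4 libraries per treatment (points), with mean and SD. Mki67 is highest with T/5z (1.53 to 2.44), Bub1b, Cdk1, Mcm6, Mcm7 and E2f1 are lower with both stimuli, Cdt1 and Pcna are low with T/5z and not with T/S/Z, and Cdkn1a is highest with T/5z.

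In the replication class of microglia, T/5z raised 1 and lowered 4 of the 14 genes tested, and T/S/Z lowered 4 and raised 0. The falls were 28.6% of the class with each stimulus, beside 13.3% and 17.5% of all genes. Under quantile normalization the T/S/Z calls of E2f1 and Rrm1 were lost, which left 2 of the 14, Mcm6 and Mcm7, and 1483 of all 10524 genes called lower, so the share of the class was then close to that of all genes. The median change of the 14 was -0.39 under T/5z, against -0.28 under T/S/Z, beside -0.06 and -0.08 over all genes tested. With 5 added before the log the medians were -0.23 and -0.18, and for T/S/Z the median was -0.18 with quantile normalization or median centring as well. For T/S/Z, all classes together had 2 of 29 members higher (6.9%) and 6 lower (20.7%), beside 12.2% and 17.5% of all genes. Of those calls over all genes 41.1% were higher, and 52.7% with median centring. Without replicate 4, 5 members in place of 8 were called. Mcm6, Mcm7 and E2f1 were called lower with both stimuli. The other MCM genes tested gave smaller changes that were not called, of -0.48 for Mcm2, -0.02 for Mcm3, -0.18 for Mcm4 and 0.33 for Mcm5 with T/5z. With T/S/Z they were -0.56 (adjusted p = 0.000846), -0.16, -0.40 and -0.06 in the same order, of which Mcm2 came close to 1.5-fold.

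Mcm6 was at 4.49, 4.52, 4.65 and 4.70 with DMSO and 4.60, 4.60, 4.71 and 4.75 with Nec-1s. It was at 3.54, 3.46, 3.23 and 3.24 with T/5z, 3.87, 3.83, 3.82 and 3.89 with T/5z/N, 3.53, 3.55, 3.54 and 3.41 with T/S/Z and 3.75, 3.82, 3.81 and 3.80 with T/S/Z/N. The groups formed 3 tiers without overlap, unstimulated highest, stimulus with Nec-1s next and stimulus alone lowest. The fall was 1.22 (change -1.22 ± 0.10, SE, adjusted p = 4.28e-05) with T/5z and 1.08 (change -1.08 ± 0.07, SE, adjusted p = 7.87e-06) with T/S/Z. Adding Nec-1s gave 0.48 (adjusted p = 0.000657) and 0.29 (adjusted p = 0.00199), both in 4 of 4 pairs and both under 1.5-fold, so neither was called.

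Mcm7 was at 2.84, 2.96, 2.90 and 3.18 with DMSO, 2.87, 2.90, 3.04 and 3.14 with Nec-1s, 2.14, 2.08, 1.97 and 1.60 with T/5z and 2.04, 1.72, 1.90 and 1.73 with T/S/Z. With Nec-1s added it was at 2.24, 2.37, 2.31 and 2.57 (T/5z/N) and 2.26, 2.36, 2.26 and 2.17 (T/S/Z/N). These were the same 3 tiers. The changes against DMSO were -1.02 ± 0.14 (SE, adjusted p = 0.00059) and -1.13 ± 0.11 (SE, adjusted p = 5.68e-05).

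E2f1 was at 2.88, 3.06, 2.97 and 3.17 with DMSO, 3.09, 3.01, 3.13 and 3.21 with Nec-1s, 2.28, 2.04, 2.19 and 2.01 with T/5z and 2.34, 2.34, 2.20 and 2.28 with T/S/Z. With Nec-1s added it was at 2.76, 2.87, 2.67 and 2.71 (T/5z/N) and 2.48, 2.51, 2.67 and 2.45 (T/S/Z/N). All stimulated libraries were below all unstimulated ones. The changes against DMSO were -0.89 ± 0.10 (SE, adjusted p = 0.000241) and -0.73 ± 0.08 (SE, adjusted p = 9.44e-05), and under quantile normalization the T/S/Z change was -0.54 and not called.

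Rrm1, the large subunit of ribonucleotide reductase, was at 3.17, 3.13, 3.20 and 3.38 with DMSO, 3.17, 3.28, 3.20 and 3.45 with Nec-1s, 3.03, 2.98, 2.87 and 2.77 with T/5z and 2.78, 2.69, 2.55 and 2.43 with T/S/Z. It was at 3.07, 3.11, 3.14 and 3.09 with T/5z/N and 2.85, 2.88, 3.11 and 2.96 with T/S/Z/N. The T/S/Z libraries were all below DMSO and touched the lowest T/5z library, with a change of -0.61 ± 0.10 (SE, adjusted p = 0.000882), which was lost without replicate 4 (-0.50) and under quantile normalization (-0.44) or median centring (-0.51). Tk1, the thymidine kinase of the salvage pathway, went up. It was at 1.41, 1.28, 1.22 and 1.58 with DMSO, 1.49, 1.01, 1.54 and 1.68 with Nec-1s, 2.02, 2.01, 2.13 and 1.95 with T/5z and 1.88, 2.18, 1.86 and 1.94 with T/5z/N. With T/S/Z it was at 1.93, 1.91, 1.49 and 1.21, overlapping with DMSO, and with T/S/Z/N at 1.76, 2.11, 2.25 and 2.14. The change with T/5z was 0.65 ± 0.10 (SE, adjusted p = 0.00119), and 0.57 and not called without replicate 3. Mcm5 was at 2.67, 2.66, 2.63 and 2.73 with DMSO, 2.76, 2.60, 2.96 and 2.64 with Nec-1s, 2.99, 3.02, 2.96 and 3.05 with T/5z and 2.78, 2.66, 2.48 and 2.56 with T/S/Z, and with Nec-1s added at 2.83, 3.01, 3.03 and 2.88 (T/5z/N) and 2.93, 3.01, 2.88 and 3.09 (T/S/Z/N). All groups with T/5z, and T/S/Z/N, were above DMSO without overlap, but by less than 1.5-fold.

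Among the replication genes not named so far, Gins2, a subunit of the replicative helicase complex, came close to the threshold. It was at 2.72, 2.71, 2.72 and 2.81 with DMSO, 2.87, 2.75, 2.72 and 2.73 with Nec-1s, 2.24, 2.13, 2.19 and 2.22 with T/5z and 2.23, 2.25, 2.07 and 2.24 with T/S/Z. It was at 2.31, 2.41, 2.49 and 2.31 with T/5z/N and 2.29, 2.40, 2.48 and 2.36 with T/S/Z/N. All stimulated libraries were below the others, with changes of -0.55 (adjusted p = 0.000217) and -0.54 (adjusted p = 0.000251) that stayed under 1.5-fold. E2f8, a repressor among the E2F factors, was at 1.06, 1.09, 1.04 and 1.06 with T/5z and at 0.64, 0.78, 0.54 and 0.68 with DMSO, a change of 0.40 (adjusted p = 0.00694), and in the other groups it lay between 0.33 and 0.68. It reached 1 in those 4 T/5z libraries alone, and passed the filter only through them. Mcm2 was at 2.25, 2.37, 2.38 and 2.63 with DMSO, 2.24, 2.36, 2.49 and 2.53 with Nec-1s, 2.00, 2.19, 1.76 and 1.76 with T/5z and 1.96, 1.76, 1.82 and 1.88 with T/S/Z. With Nec-1s added it was at 2.39, 2.21, 2.37 and 2.00 (T/5z/N) and 1.78, 1.72, 1.78 and 1.83 (T/S/Z/N), the latter below all DMSO libraries.

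With 5 in place of 1 added to the FPKM values, the T/5z calls of Bub1b (-0.29), Cdk1 (-0.44), Nusap1 (0.21), Tk1 (0.29) and E2f1 (-0.53) and the T/S/Z calls of Bub1b (-0.31), Aurkb (-0.20), E2f1 (-0.45), Rrm1 (-0.40) and Ccnd1 (0.46) fell under 1.5-fold, with their direction kept. Those of Mki67, Cdt1, Mcm6, Mcm7 and Cdkn1a with T/5z, and of Mcm6, Mcm7 and Cdkn1a with T/S/Z, held.

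Cdt1, which brings the MCM helicase to origins, was the member that differed most between the stimuli. With DMSO it was at 4.38, 4.41, 4.13 and 4.39, and with Nec-1s at 4.41, 4.32, 4.12 and 4.27. With T/5z it was at 2.59, 2.69, 2.69 and 2.74, and with T/5z/N at 3.30, 3.37, 3.47 and 3.21. With T/S/Z it was at 4.5, 4.34, 4.69 and 4.71, and with T/S/Z/N at 3.11, 3.14, 3.17 and 2.96. The T/5z libraries were the lowest of the 24, the T/S/Z libraries overlapped with DMSO, and the 2 groups with Nec-1s lay between, so Nec-1s moved Cdt1 up after T/5z and down after T/S/Z.

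T/5z lowered Cdt1 by 1.65 (change -1.65 ± 0.07, SE, adjusted p = 3.05e-06), while the change with T/S/Z was 0.23 ± 0.10 (SE, adjusted p = 0.0674). T/S/Z lay 1.88 above T/5z (adjusted p = 8.77e-06). Nec-1s raised it by 0.66 ± 0.06 (SE, adjusted p = 0.000104) after T/5z, a call lost under quantile normalization (0.58), and lowered it after T/S/Z (change -1.46 ± 0.08, SE, adjusted p = 1.21e-05). The difference between these Nec-1s effects was 2.13 ± 0.11 (SE, adjusted p = 4.27e-08), the lowest adjusted p of the 29 members tested, and it was called in each alternative run. With Nec-1s present, Cdt1 was below DMSO after both stimuli (-0.99 for T/5z/N and -1.23 for T/S/Z/N). Cdt1 carries an annotation mark of confounding, which the authors left undefined, so reads of a neighbouring gene may be included. The same mark was on 20 of the 43 members in the microglial annotation, among them Mki67, Mcm7, Tk1, Rrm1, Ccnd1 and Cdkn1a.

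Pcna, too, stood lower with T/5z than with T/S/Z. It was at 7.04, 7.08, 7.32 and 7.19 with DMSO, 7.07, 7.18, 7.23 and 7.22 with Nec-1s, 6.79, 6.69, 6.70 and 6.56 with T/5z and 6.80, 6.84, 6.65 and 6.74 with T/5z/N. With T/S/Z it was at 7.39, 7.31, 7.37 and 7.52, and with T/S/Z/N at 6.95, 6.93, 6.76 and 6.79. T/S/Z overlapped with DMSO at its lower end, and the other stimulated groups were below DMSO. Unlike Cdt1, its T/5z and T/5z/N libraries overlapped (0.08 with Nec-1s added, adjusted p = 0.229), and T/S/Z/N lay 0.54 below T/S/Z (change -0.54, adjusted p = 0.000325), under 1.5-fold. Against DMSO, -0.47 (T/5z, adjusted p = 0.00109) and 0.24 (T/S/Z, adjusted p = 0.00758) were under 1.5-fold. T/S/Z against T/5z gave 0.72 ± 0.07 (SE, adjusted p = 0.000248), and the difference between the Nec-1s effects was 0.62 ± 0.08 (SE, adjusted p = 0.000119). Both calls were lost under quantile normalization (0.54 and 0.46), and the second also without replicate 4 (0.52).

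Geminin (Gmnn), which binds CDT1 and blocks licensing, was not a member but stood on a wider list of replication genes. In microglia its mean was 3.80 with DMSO, 2.13 with T/5z, 3.05 with T/5z/N, 2.16 with T/S/Z and 3.03 with T/S/Z/N. It fell with both stimuli (-1.67, adjusted p = 1.09e-05, and -1.64, adjusted p = 2.62e-05) and rose when Nec-1s was added to either (0.93, adjusted p = 2.17e-05, and 0.88, adjusted p = 0.000101). Of the stimuli without Nec-1s, both lowered Gmnn and T/5z alone lowered Cdt1.

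The direct comparison of T/S/Z with T/5z called 5 of the 29 members, beside 9.83% of all genes tested, and the difference between the Nec-1s effects called 4, beside 6.47%. The 5 were Cdt1 and Pcna, higher with T/S/Z, and Mki67, Aurka and Cdkn1a, lower. The 4 were Cdt1 (2.13), Pcna (0.62), Aurka (-0.65, adjusted p = 0.00314) and Cdkn1a (-0.85, adjusted p = 0.000312), as the effect after T/5z minus the effect after T/S/Z. That of Aurka was -0.51 and not called without replicate 3.

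Cdkn1a (p21) was the most abundant member in microglia and rose with both stimuli. It was at 8.13, 8.17, 7.98 and 7.73 with DMSO, 8.23, 8.26, 8.05 and 7.76 with Nec-1s, 10.13, 10.22, 10.52 and 10.75 with T/5z and 9.20, 9.12, 9.25 and 9.41 with T/5z/N. With T/S/Z it was at 9.37, 9.43, 9.30 and 9.29, and with T/S/Z/N at 9.06, 8.91, 9.02 and 9.17. The T/5z libraries were above all others, and the other stimulated libraries were above the unstimulated ones. In FPKM the means were 257 with DMSO, 650 under T/S/Z and 1375 under T/5z. T/5z raised it by 2.40 ± 0.16 (SE, adjusted p = 2.02e-05), and T/S/Z raised it by 1.34 ± 0.06 (SE, adjusted p = 1.31e-06). Nec-1s lowered it by 1.16 (change -1.16 ± 0.07, SE, adjusted p = 9.49e-06) after T/5z and gave -0.31 (adjusted p = 0.00866, under 1.5-fold) after T/S/Z.

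Ccnd1 (cyclin D1) was at 2.65, 2.74, 2.88 and 2.87 with DMSO, 2.87, 2.79, 3.01 and 2.70 with Nec-1s, 3.37, 3.52, 2.63 and 2.60 with T/5z and 3.41, 3.17, 3.43 and 3.82 with T/S/Z. With Nec-1s added it was at 2.64, 2.78, 2.30 and 2.13 (T/5z/N) and 2.47, 2.40, 3.15 and 3.28 (T/S/Z/N). T/5z split into a pair of libraries above DMSO and a pair just below its lowest value, whereas the T/S/Z libraries were all above DMSO. The rise with T/S/Z was 0.67 ± 0.09 (SE, adjusted p = 0.000368), and 0.58 and not called without replicate 4. The change with T/5z was 0.24 (adjusted p = 0.318).

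When Nec-1s was added, few members were called. T/5z/N against T/5z called 2 of 29 higher (6.9%), Cdt1 and E2f1 (0.62 ± 0.08, SE, adjusted p = 0.000368), and 2 lower, Mki67 (-0.75 ± 0.15, SE, adjusted p = 0.00443) and Cdkn1a, beside 2.64% higher and 4.52% lower among all genes. The E2f1 call was lost without replicate 2 (0.56), with quantile normalization (0.55) and with median centring (0.58), and the Mki67 call with the variance of each gene alone (adjusted p = 0.1). Quantile normalization called 0 members higher and 3 lower, and median centring 1 and 3. Of the calls over all genes 36.9% were higher, and 27.2% with median centring. T/S/Z/N against T/S/Z called 0 higher and 3 lower (10.3%), Cdt1, Ccnd1 and Rrm2, the small subunit of ribonucleotide reductase, beside 5.35% higher and 6.72% lower. Of those calls over all genes 44.3% were higher, and 28.9% with median centring, under which 5 members were called. Without replicate 2, 5 were called as well. Rrm2 was at 1.42, 0.98, 0.98 and 1.43 with T/S/Z and 0.45, 0.65, 0.48 and 0.67 with T/S/Z/N, against 0.83, 0.64, 0.97 and 0.82 with DMSO, so T/S/Z lay above both. Rrm2 reached 1 in 5 of the 24 libraries, all with T/S/Z or T/5z, and passed the filter only through them. Ccnd1 gave -0.63 ± 0.10 (SE, adjusted p = 0.0014) and Rrm2 gave -0.64 ± 0.12 (SE, adjusted p = 0.00256). Without replicate 1 both were -0.53 and not called, and Ccnd1 was lost with the variance of each gene alone (adjusted p = 0.0511). With 5 added before the log, only Cdkn1a in the first comparison and Cdt1 in the second held.

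With Nec-1s present, the stimuli still moved members against DMSO. T/5z/N had 4 of 29 higher (13.8%), Mki67 (0.79), Nusap1 (0.69), Tk1 (0.59) and Cdkn1a (1.24), and 4 lower, Bub1b (-0.65), Cdt1 (-0.99), Mcm6 (-0.74) and Mcm7 (-0.60), beside 6.16% and 6.69% of all genes. T/S/Z/N had 2 higher, Tk1 (0.69) and Cdkn1a (1.04), and 6 lower (20.7%), Bub1b (-0.86), Cdk1 (-0.74), Cdt1 (-1.23), Mcm6 (-0.80), Mcm7 (-0.71) and Mcm2 (-0.63), beside 6.20% and 7.87%. For each of these the change had its sign in 4 of 4 pairs. Those comparisons share the DMSO libraries with the stimulus comparisons. Calls lost when a replicate was left out were those of Tk1 (0.49 without replicate 2 and 0.58 without replicate 3) and Bub1b (-0.58 without replicate 2) in T/5z/N, and of Tk1 (0.58 without replicate 3) and Mcm2 (-0.58 without replicate 4) in T/S/Z/N. With the variance of each gene alone, T/5z/N lost Mki67 (adjusted p = 0.0525) and Tk1 (adjusted p = 0.0564), and T/S/Z/N lost Tk1 (adjusted p = 0.0562). With quantile normalization T/5z/N lost Mcm7 (-0.55) and Bub1b (-0.54) and T/S/Z/N lost Mcm2 (-0.52), and with median centring T/5z/N lost Mcm7 (-0.58). With 5 added before the log, Cdt1, Mcm6 and Cdkn1a alone held in both.

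**Figure D4:**
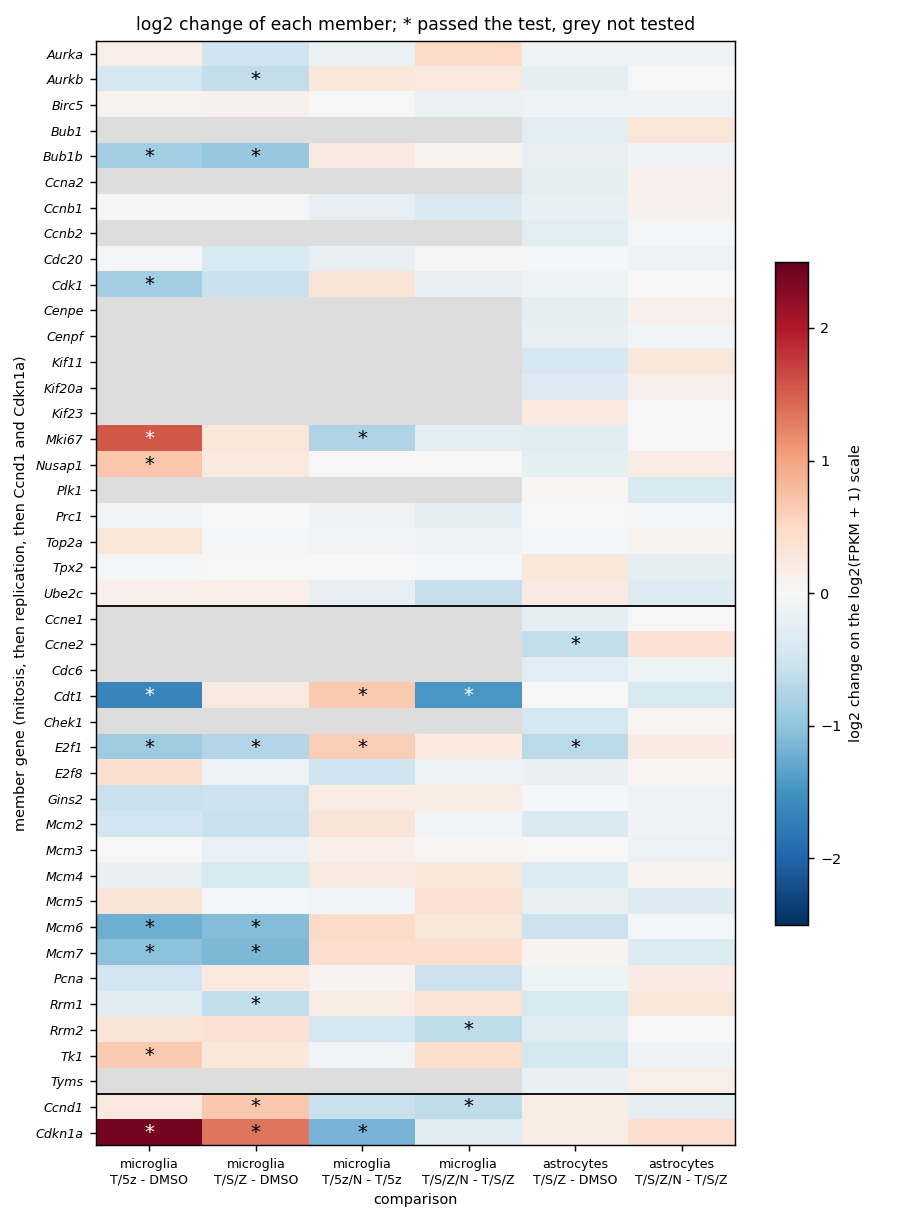
log2 change of each member in 6 comparisons (colour, on the log2(FPKM + 1) scale), with a star where it was called and grey where the member did not pass the filter. In microglia the replication block holds falls of Mcm6, Mcm7 and E2f1 with both stimuli and opposite signs for Cdt1, and in astrocytes the changes are smaller, with calls for E2f1 and Ccne2 alone.

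Wider lists of genes with the same roles, which hold no members, were counted in the same way. Of 35 wider replication genes tested, 8 fell and 0 rose with T/5z and 12 fell and 0 rose with T/S/Z, with medians of -0.23 and -0.42. Among all genes tested, 11.1% rose and 13.3% fell with T/5z, and 12.2% and 17.5% with T/S/Z, beside 22.9% and 34.3% of this list that fell. The examples with the largest changes were Gmnn, Dnmt1, the maintenance DNA methyltransferase (-1.37 and -1.16), Atad2 (-0.89 and -1.21), Pold1, the catalytic subunit of polymerase delta (-0.85 and -1.19), Rfc1, of the clamp loader (-0.97 and -1.03), and Chaf1b, of chromatin assembly factor 1 (-0.88 and -0.60). Of 25 wider mitosis genes tested, 4 rose and 5 fell with T/5z and 1 rose and 10 fell with T/S/Z, with medians of -0.18 and -0.51. That is 16% higher and 20% lower with T/5z, not far from the shares of all genes, and 4% and 40% with T/S/Z. Ncapg2, of condensin II, fell with both (-1.94 and -1.67), Ncapd2 also fell (-0.67 and -0.86), Ube2s rose with both (0.74 and 1.10), and with T/5z Trip13 (0.93) and Mad2l1 (0.62) rose and the centromeric histone Cenpa (-0.91) fell.

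Among 34 G1 regulators tested, 2 rose and 6 fell with T/5z and 4 rose and 7 fell with T/S/Z. These shares (5.88% and 17.6%, then 11.8% and 20.6%) were near those of all genes, apart from the fewer rises with T/5z. The inhibitor gene Cdkn2b (2.95 and 2.19) and the kinase gene Cdk6 (1.83 and 2.55) rose with both, and Myc rose with T/S/Z (2.01). Chek2 (-1.68 and -1.76), the phosphatase gene Cdc25b (-1.73 and -1.65) and the inhibitor gene Cdkn1b, which encodes p27 (-0.96 and -1.48), fell with both. Of 27 p53 targets tested, 6 rose and 4 fell with T/5z and 8 rose and 7 fell with T/S/Z, with medians of 0.11 and 0.04, or 22.2% and 14.8%, then 29.6% and 25.9%, against the shares of all genes given above. Gdf15 (1.78 and 5.00), Plk2 (1.13 and 4.15) and the death receptor gene Fas (2.87 and 2.18) rose with both, Plk3 rose with T/S/Z (2.87), Trp53inp1 fell with both (-1.13 and -2.09) and Sesn1 fell with T/S/Z (-2.71). With Nec-1s added to T/S/Z, 6 of the 27 rose and 7 fell (22.2% and 25.9%, beside 5.35% and 6.72% of all genes). Gdf15 (-4.08), Plk2 (-3.94) and Plk3 (-3.12) fell, while Sesn1 (1.74) and Trp53inp1 (1.55) rose. With Nec-1s added to T/5z, 5 rose and 2 fell (18.5% and 7.41%, beside 2.64% and 4.52% of all genes).

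Markers of other cells moved with the stimuli in the microglial libraries, and their part in the results above was not tested. Of 11 astrocyte markers listed, 7 were tested, and Aqp4, Slc1a3, Gja1 and Gfap rose with T/5z (0.81 to 1.5) and with T/S/Z (0.86 to 1.02), fell with Nec-1s added to either, and Glul fell with both stimuli. Leaving out Glul, which microglia also express, the 10 markers were at 0.24% to 3.22% of their level in DMSO astrocytes with T/5z and at 0.114% to 2.20% with DMSO. Mki67 was at 38.3% of its astrocyte level with T/5z and at 5.39% with DMSO, Nusap1 at 8.56% and 2.5%, and Tk1 at 32.1% and 16.7%. These percentages set the separately normalized tables side by side, and exon lengths differ between the annotations, as for Tk1 (1440 bases in microglia and 5198 in astrocytes). Of 6 fibroblast markers, 4 were tested and 4 rose with T/5z, with summed levels of 12.7 to 21.8 FPKM against 6.66 to 9.10 with DMSO, 7.27 to 9.20 with T/5z/N and 5.07 to 8.33 with T/S/Z. The summed astrocyte list was 175 to 235 FPKM with DMSO, 81.6 to 107 with T/5z and 112 to 133 with T/S/Z, with Glul at 112% of its astrocyte level with DMSO, 60.9% under T/S/Z and 44.4% under T/5z. Of 11 microglial markers tested, 1 rose and 2 fell with T/5z and none was called with T/S/Z. Of 2 endothelial markers, 1 fell with T/5z and 2 fell under T/S/Z, of 3 oligodendrocyte markers 1 rose and 1 fell with T/5z and 2 rose with T/S/Z, and the 1 neuronal marker tested was not called. In bulk libraries, fewer cells of a type and less RNA per cell cannot be told apart.

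In astrocytes, where 43 of 43 members passed the filter, T/S/Z called 0 members higher and 2 lower, E2f1 and Ccne2, which encodes cyclin E2, beside 6.39% higher and 8.99% lower among all genes tested. Of the calls over all genes 41.5% were higher, and 52.1% with quantile normalization. Of 22 mitosis genes 0 were called, with a median change of -0.19 and a range from -0.43 to 0.29. The 19 replication genes had a median of -0.28, and the median of all genes tested was -0.11. With quantile normalization these were -0.12 for mitosis, -0.14 for replication and -0.05 for all genes, and with 5 added before the log -0.13, -0.16 and -0.07. A negative change was found for 36 of the 43 members and for 8729 of the 13842 genes.

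E2f1 was at 2.65, 2.35 and 2.47 with DMSO, 2.43, 2.56 and 2.41 with Nec-1s, 2.11, 1.83 and 1.52 with T/S/Z and 1.87, 2.13 and 2.09 with T/S/Z/N. Ccne2 was at 2.74, 2.87 and 3.05 with DMSO, 2.72, 2.92 and 2.5 with Nec-1s, 2.00, 2.34 and 2.47 with T/S/Z and 2.62, 2.65 and 2.65 with T/S/Z/N. The T/S/Z libraries of both genes were below all DMSO libraries. The changes were -0.67 ± 0.12 (SE, adjusted p = 0.00511) and -0.61 ± 0.10 (SE, adjusted p = 0.00306), in 3 of 3 pairs. Both calls were lost with 5 added in place of 1 (-0.35 and -0.37), under quantile normalization (-0.54 and -0.49), with the variance of each gene alone (adjusted p = 0.135 and 0.0792) and without replicate 1 (-0.73, adjusted p = 0.0649, and -0.55). That of E2f1 was also lost without replicate 3 (-0.53) and that of Ccne2 with median centring (-0.56).

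Other replication genes of astrocytes stayed under 1.5-fold. Mcm6 was at 4.68, 4.46 and 4.54 with DMSO, 4.49, 4.49 and 4.32 with Nec-1s, 3.98, 3.96 and 4.14 with T/S/Z and 4.11, 3.96 and 3.95 with T/S/Z/N, a change with T/S/Z of -0.53 ± 0.09 (SE, adjusted p = 0.00336). Rrm1 was at 5.18, 5.10 and 5.17 with DMSO, 5.13, 5.17 and 5.10 with Nec-1s, 4.67, 4.71 and 4.88 with T/S/Z and 5.07, 5.09 and 4.94 with T/S/Z/N (-0.40, adjusted p = 0.00712). Chek1, a kinase of the replication checkpoint, was at 2.37, 2.31 and 2.23 with DMSO, 2.10, 2.55 and 1.86 with Nec-1s, 1.82, 1.94 and 1.84 with T/S/Z and 1.75, 2.27 and 1.72 with T/S/Z/N (-0.43, adjusted p = 0.0144). In these 3 genes, picked for the size of their change, T/S/Z did not overlap with DMSO. How many of all genes show such a gap was not counted. The lowest Chek1 library with Nec-1s alone (1.86) lay within the T/S/Z range.

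Tk1 was at 3.77, 3.29 and 3.08 with DMSO, 3.36, 3.43 and 3.17 with Nec-1s, 3.14, 3.05 and 2.61 with T/S/Z and 2.78, 2.85 and 2.84 with T/S/Z/N. Mcm5 was at 3.64, 3.41 and 3.21 with DMSO, 3.41, 3.48 and 3.25 with Nec-1s, 3.45, 3.26 and 3.02 with T/S/Z and 2.91, 2.93 and 2.95 with T/S/Z/N. Pcna was at 6.93, 6.84 and 7.04 with DMSO, 6.87, 7.16 and 6.83 with Nec-1s, 6.70, 6.72 and 7.01 with T/S/Z and 6.95, 6.98 and 7.12 with T/S/Z/N. For these 3 the T/S/Z and DMSO libraries overlapped.

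Among the mitosis genes of astrocytes with the largest changes, Kif11, the kinesin that separates spindle poles, was at 3.70, 3.78 and 3.67 with DMSO, 3.62, 3.66 and 3.55 with Nec-1s, 3.29, 3.00 and 3.58 with T/S/Z and 3.62, 3.56 and 3.51 with T/S/Z/N (-0.43, adjusted p = 0.0394). Kif20a, a kinesin of cytokinesis, was at 4.32, 4.18 and 4.06 with DMSO, 4.18, 4.24 and 4.08 with Nec-1s, 3.89, 3.87 and 3.85 with T/S/Z and 3.97, 4.08 and 3.95 with T/S/Z/N (-0.32, adjusted p = 0.0214). Tpx2, which activates Aurora A on the spindle, was at 4.79, 4.73 and 4.61 with DMSO, 4.69, 4.70 and 4.61 with Nec-1s, 4.95, 4.92 and 5.12 with T/S/Z and 4.87, 4.83 and 4.66 with T/S/Z/N (0.29, adjusted p = 0.0403). In these 3 the T/S/Z libraries lay to one side of DMSO, below for the kinesins and above for Tpx2, by less than 1.5-fold. How many of all genes show such a gap was not counted. For Kif11 the highest T/S/Z library (3.58) lay above the lowest library with Nec-1s alone (3.55).

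Mki67 in astrocytes was at 3.35, 3.47 and 3.10 with DMSO, 3.09, 3.24 and 3.16 with Nec-1s, 3.05, 2.72 and 3.21 with T/S/Z and 3.24, 3.06 and 2.73 with T/S/Z/N. Top2a was at 5.25, 5.33 and 5.07 with DMSO, 5.12, 5.22 and 5.11 with Nec-1s, 5.17, 4.98 and 5.43 with T/S/Z and 5.4, 5.27 and 5.18 with T/S/Z/N. The mitotic cyclin gene Ccnb2 was at 4.42, 4.04 and 3.80 with DMSO, 3.78, 4.12 and 3.86 with Nec-1s, 3.91, 3.76 and 3.75 with T/S/Z and 3.73, 3.86 and 3.76 with T/S/Z/N. The groups overlapped in all 3, with T/S/Z changes of -0.31, -0.02 and -0.28. The checkpoint kinase gene Bub1 was at 2.75, 2.99 and 2.80 with DMSO, 2.82, 3.00 and 2.67 with Nec-1s, 2.51, 2.46 and 2.80 with T/S/Z and 2.91, 2.94 and 2.84 with T/S/Z/N, overlapping with DMSO as well (-0.26).

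**Figure D5:**
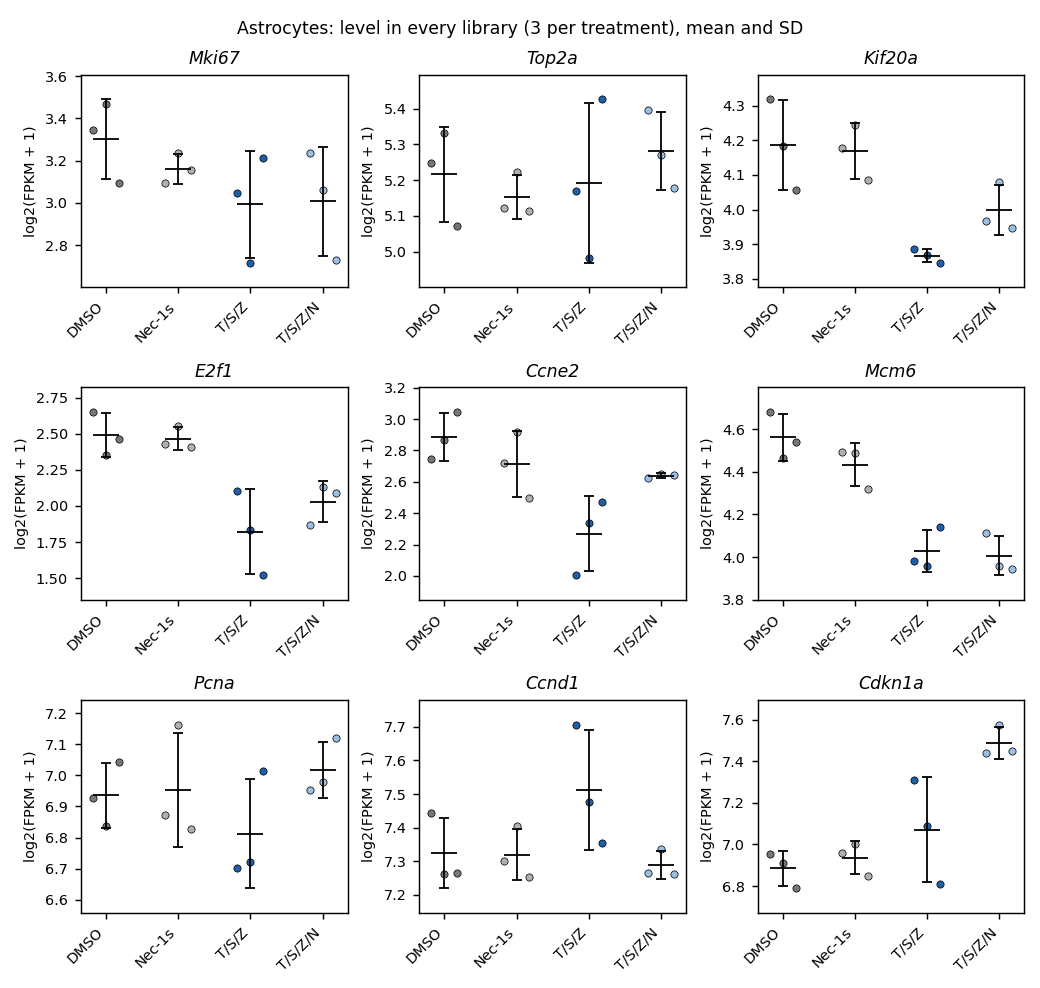
Level of 9 members in each astrocyte library as log2(FPKM + 1), 3 libraries per treatment (points), with mean and SD. E2f1 and Ccne2 are lower with T/S/Z than with DMSO in all libraries, Mki67 and Top2a overlap between the groups, and Cdkn1a is highest with T/S/Z/N (7.44 to 7.58).

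Cdkn1a in astrocytes was at 6.95, 6.91 and 6.79 with DMSO, 6.96, 7.00 and 6.85 with Nec-1s, 7.31, 7.09 and 6.81 with T/S/Z and 7.44, 7.58 and 7.45 with T/S/Z/N. The T/S/Z/N libraries were above all others, and T/S/Z overlapped with DMSO. Cdkn1a was the 1 member called higher with T/S/Z/N against DMSO (0.60 ± 0.07, SE, adjusted p = 0.00181), beside 4.36% of all genes, and 0 were called lower, beside 4.72%. Of the calls over all genes 48.1% were higher, and 59.1% with quantile normalization. That call was lost without replicate 2 (0.57), without replicate 3 (0.58) and with the variance of each gene alone (adjusted p = 0.104). The change with T/S/Z was 0.19 (adjusted p = 0.121). Ccnd1 was at 7.44, 7.26 and 7.27 with DMSO, 7.30, 7.4 and 7.25 with Nec-1s, 7.71, 7.48 and 7.36 with T/S/Z and 7.27, 7.34 and 7.26 with T/S/Z/N, with overlap between T/S/Z and DMSO.

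Among the astrocyte members not given by library, the changes with T/S/Z lay between -0.37 (Mcm2) and 0.24 (Kif23, a kinesin of the midzone), and none was called. Nec-1s added to T/S/Z called 0 of the 43 members in astrocytes by limma, beside 3.10% of all genes tested. An unadjusted p under 0.05 was found for 10, the changes lay between -0.41 and 0.42, and 22 were positive and 21 negative. The largest rise in value was that of Cdkn1a (0.42, adjusted p = 0.0637), in 3 of 3 pairs.

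The wider lists in astrocytes gave 2 falls and 0 rises among 56 mitosis genes with T/S/Z, Ckap2 (-0.61) and Ndc80 (-0.61), and 3 falls and 0 rises among 54 replication genes, Gmnn (-0.69, adjusted p = 0.0259), Rad51ap1 (-0.69) and Atad2 (-0.59). The falls were 3.57% and 5.56% of these lists, below the 8.99% of all genes, beside 6.39% that rose. Of 39 G1 regulators, 4 rose and 5 fell, among them Myc (1.48), Cdk6 (0.95), Chek2 (-1.01), Mycn (-0.92) and Tfdp2 (-0.75), and Cdkn2b rose (0.65, and 1.07 with T/S/Z/N). That is 10.3% higher and 12.8% lower. Of 30 p53 targets, 3 rose and 3 fell (10% each), with Fas (1.38), Plk2 (1.34), Sesn1 (-1.26), Perp (-0.95) and Trp53inp1 (-0.86) at the ends, and Btg2 was called with T/S/Z/N (1.27).

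Markers of other cells also moved in the astrocyte libraries. With T/S/Z, 6 of 6 fibroblast markers fell, with summed levels of 112 to 124 FPKM against 612 to 626 with DMSO, 7 of 10 microglial markers fell, with 61.0 to 63.7 against 102 to 105, and 2 of 2 endothelial markers fell, with 3.29 to 4.02 against 16.0 to 17.4. With Nec-1s added, 6 of 6 fibroblast markers rose, to 490 to 492 FPKM. Their part in the changes of the members was not tested. Of 11 astrocyte markers 3 fell with T/S/Z, of 7 oligodendrocyte markers 2 fell, and of 2 neuronal markers none was called. The summed astrocyte markers were 3087 to 3275 FPKM with T/S/Z and 3459 to 3529 with DMSO.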

How the data were processed

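Polyadenylated RNA of cultured microglia and astrocytes was sequenced, and the authors aligned and quantified the reads in OmicSoft Array Studio on mouse build GRCm38. The values they deposited are log2(FPKM + 1), where FPKM are fragments per kilobase of exon relative to depth, after all libraries of a table had been brought to the same upper quartile. In microglia the mean of every gene over the treatments was equal in all replicates within 8.33e-05, an adjustment the methods do not describe, which left negative values in 18 libraries. It limits what the spread between those replicates can show.

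Genes with a value of at least 1 in at least 4 microglial or 3 astrocyte libraries were fitted with limma 3.58.1 (R 4.3.3; lmFit and eBayes with trend) on the libraries compared, blocked on the replicate number since the study tested expression with a paired test. The difference between the Nec-1s effects was an interaction over 4 microglial groups. Tests were 2-sided, and levels, counts and motif searches were made with pandas 2.3.3. Members and lists were chosen with earlier results of these data known. Values by library are given for Ccnd1, Cdkn1a, Mki67, Top2a, Mcm5 and Pcna, and for up to 6 members of each class and cell type that passed the filter with the largest absolute change under a stimulus. Those of Gins2, E2f8, Mcm2 and Rrm2 were added after their values were seen. Of each wider list, up to 6 called genes with the largest change are named. Markers of microglia, astrocytes, oligodendrocytes, fibroblasts, endothelial cells and neurons were counted as checks. In the depth estimate, 79.5% to 89.8% of low values in an astrocyte library lay within 0.1 of a whole multiple of the step. On simulated data the fit recovered 98% of genes changed by 1 on the log2 scale for T/S/Z in microglia and 77% in astrocytes, and 100% and 97% of genes changed by 2, with 1 and 10 false calls. Smaller changes, such as those called for members in astrocytes, were not simulated. The microglial spread used was that left by the authors' adjustment. Alternatives were another filter or none, 5 added before the log, quantile normalization, median centring, the variance of each gene alone, 1 fit over all groups, no block, and each replicate left out. The confounding mark in the annotation is not defined.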

Additional observations from a re-analysis of the deposited data

Results flagged for a closer look

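Of 258 microglial groups of 4 libraries, the 6 treatments of all 43 members, 13 had 1 library apart from the others by more than Dixon's limit for 4 samples, where chance marks about 1 in 20. Among members given by library, Cdt1 with DMSO had replicate 3 at 4.13, while the others were at 4.38 to 4.41, and Gins2 had replicate 4 with DMSO at 2.81 (others 2.71 to 2.72) and replicate 3 with T/S/Z at 2.07 (others 2.23 to 2.25). With DMSO, replicate 4 was also apart for Kif23 (0.89) and Tyms (0.87). With Nec-1s, replicate 2 of Mcm4 (2.56) and replicate 3 of Cenpe (0.26) were low. With T/5z, replicate 1 of Cenpe (0.34) and replicate 2 of Cdc6 (0.34) were high, and with T/5z/N replicate 4 of Ccnb1 (1.15). With T/S/Z, replicate 1 of Ube2c (1.76) was high, and with T/S/Z/N replicate 1 of Kif20a (0.53) and replicate 2 of Ccne1 (0.77) were low.

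The effect of Nec-1s in microglia differed between the stimuli for 4 members in limma's interaction test. The effect after T/5z minus the effect after T/S/Z was 2.13 for Cdt1, 0.62 for Pcna, -0.65 for Aurka and -0.85 for Cdkn1a.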

How the results depend on the processing

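Of 53 called changes of members, 20 kept their call under every alternative run that tested them. Members with a mean under 3 were not tested in the run that required at least 3. Over 602 recomputed values 524 kept the call, 78 kept the direction alone and 0 reversed. Adding 5 before the log took 30 calls, quantile normalization 12, the variance of each gene alone 10, median centring 5, and leaving out 1 replicate 4 to 7. Counts of called members per comparison stayed within 1.5 times in 125 of 152 cases. With 5 added they were 5 for T/5z, 3 for T/S/Z, 1 for T/5z/N against T/5z, 1 for T/S/Z/N against T/S/Z, 3 for either stimulus with Nec-1s against DMSO, 3 for T/S/Z against T/5z and 0 for T/S/Z in astrocytes, and with a mean of at least 3 required they were 3, 3, 2, 1, 3, 3 and 0 in that order, with fewer members tested. Quantile normalization gave 5 for T/S/Z in microglia and 0 in astrocytes. Median centring gave 5 for T/S/Z/N against T/S/Z and 1 for T/S/Z in astrocytes. The variance of each gene alone gave 0 in astrocytes for T/S/Z and for T/S/Z/N against DMSO.

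Leaving out 1 replicate gave 5 to 11 called members for T/S/Z in microglia (11 without replicate 1, 5 without replicate 4), 3 to 5 for T/S/Z/N against T/S/Z, 0 to 3 for T/S/Z in astrocytes (0 without replicate 1) and 0 to 2 for T/S/Z/N against DMSO in astrocytes (0 without replicate 2, 2 without replicate 3). The cause of lost calls was not tested. Without the replicate block the counts in microglia were 0 for Nec-1s alone, 10 for T/5z, 8 for T/S/Z, 4 for T/5z/N against T/5z, 3 for T/S/Z/N against T/S/Z, 8 for either stimulus with Nec-1s against DMSO, 5 for T/S/Z against T/5z and 4 for the interaction. In astrocytes they were 0 for Nec-1s alone, 2 for T/S/Z, 0 for T/S/Z/N against T/S/Z and 1 for T/S/Z/N against DMSO. All were within 1.5 times the counts with the block. In microglia the authors' adjustment had already made the replicate means equal, so there neither this comparison nor a correlation of libraries with the same number can show whether the numbers pair the libraries. In astrocytes the deviations of libraries with the same number correlated by -0.144 to 0.411, and those with different numbers by -0.443 to 0.194. The same-number range reached higher but was not above 0.1 in every pair, so the pairing is not settled by these values. In microglia 20 of 43 members rest on under 50 fragments at the median, and the replicate adjustment can hide part of the spread.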
